A study of Homo sapiens with 24 samples.

Results

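Genes of ribosome biogenesis and the nucleolus were followed through treatment of 2 human leukemia lines with EPZ004777, a small-molecule inhibitor of the histone methyltransferase DOT1L. The list names 46 genes, and each gene was represented by its probe set with the highest mean over all arrays. Of the 46, 40 were measured, among 10971 genes tested from 54675 probe sets. The probe sets of 3 members, NOP56, DKC1 and BOP1, are listed together with microRNA or small nucleolar RNA genes as well, so no value could be given to the gene alone. A further 3 members, EBNA1BP2, DDX18 and GNL3, were not analysed here, and no member was lost to the filter on low values.

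The MLL-AF4 line, MV4-11, comes from a biphenotypic B myelomonocytic leukemia and was kept in IMDM, and the MLL-AF9 line, MOLM-13, comes from an acute myeloid leukemia and was kept in RPMI, each medium with 10% fetal bovine serum. MV4-11 cells received 3 uM EPZ004777 or the vehicle, 0.1% DMSO, and were sampled on days 2, 4 and 6, while MOLM-13 cells received the same agents and were sampled on day 6. Each of the 8 groups had 3 biological replicates, 24 arrays in all. Each fusion is represented by 1 line, and the labels do not say whether the replicates were separate cultures, so p-values measure the spread between these samples. A call below means an adjusted p under 0.05 in limma's model over all 10971 genes, and differences are log2 EPZ004777 minus vehicle with the SE of the model, unless another order is named.

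Ribosomes are assembled in the nucleolus. RNA polymerase I copies the ribosomal DNA into a long precursor, small nucleolar RNPs guide the chemical modification of its bases and sugars, and assembly factors fold, cut and package it into the small and the large subunit before export to the cytoplasm. Growing cells spend much of their transcription and energy on this work, and MYC is a well-known activator of many of its genes. In blood cells the nucleolus is large in dividing blasts and shrinks as cells mature.

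On day 6, 30 of the 40 members fell in treated MV4-11 cells and 0 rose, where 28.4% of all genes fell and 33.6% rose. In treated MOLM-13 cells 30 fell and 1 rose, where 36.5% of all genes fell and 29.3% rose. The treated MOLM-13 arrays differed from the vehicle arrays in a measure of RNA quality, the log2 difference between 3′ and 5′ control probe sets, at 2.10 to 2.84 in treated and 0.95 to 1.15 in vehicle cultures. With this measure as a covariate, 17 members fell and 0 rose in MOLM-13 (all genes 22.7% and 16.9%), and 29 fell and 1 rose in MV4-11 (all genes 24.6% and 30.9%). The member medians were -0.30 in MV4-11 and -0.38 in MOLM-13 on the log2 scale, beside 0.04 and -0.03 over all genes. After each array was centred on its own median, the member medians were -0.38 in MV4-11 and -0.30 in MOLM-13. On day 2 only 3 members fell and 0 rose (all genes 3.68% and 8.82%), and on day 4 12 fell and 3 rose (all genes 21% and 25.2%). In RNA of whole cultures, fewer cells with a transcript and less transcript in each cell cannot be told apart, and array intensities scaled to 1 distribution give relative levels, not amounts per cell.

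**Figure D1:**
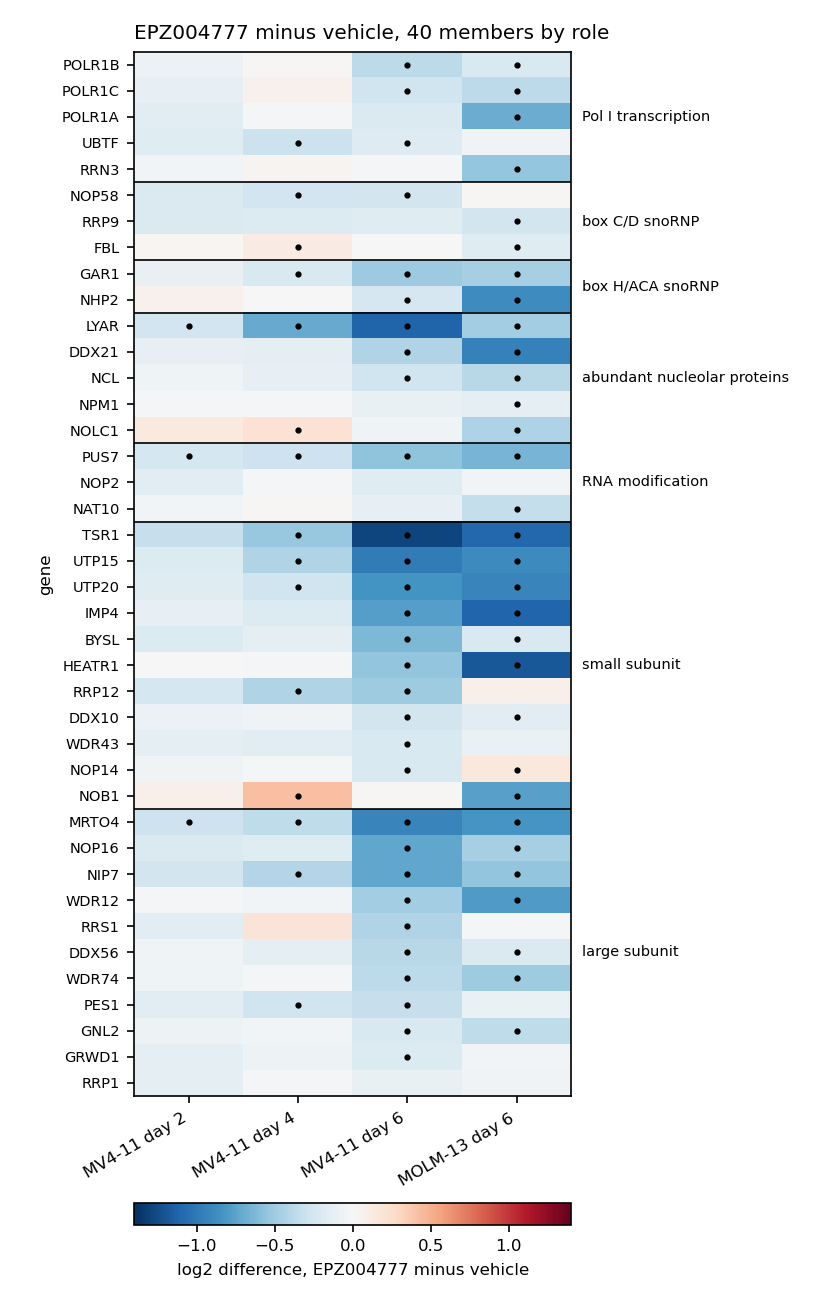
Log2 difference, EPZ004777 minus vehicle, of the 40 measured members (rows, grouped by role) in MV4-11 cells on days 2, 4 and 6 and in MOLM-13 cells on day 6 (columns, 3 arrays per group). Blue is lower and red higher in treated cultures, and a dot marks a call at an adjusted p under 0.05. The 2 columns of day 6 hold 30 and 31 dots, against 3 on day 2 and 15 on day 4.

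The promoters of the members were looked at because so many members moved in 1 direction. RefSeq promoters of GRCh38.p14, each 250 bases before to 50 bases after 1 start site of the gene, were found for 40 of the 46 members. BOP1, DDX18, NOLC1, NOP58, RRP12 and RRS1 had no entry. For some members, among them BYSL, PES1, NPM1 and WDR74, that site lay inside the span of the gene, not at its outer end. The E-box CACGTG, a palindrome that MYC with MAX and other helix-loop-helix proteins bind, was searched on both strands. It was present in 14 of 40 member promoters (35%), in 10.6% of the 9031 promoters of tested genes and in 7.43% of all 27305 promoters. In 13 of the 14 an E-box began within 50 bases of the start site. Below are 5 promoters of assembly factors that fell in both lines on day 6, 3 with the E-box in capitals and 2 with none, written 5′ to 3′ on the strand of the gene. They lie at chr1:19251555-19251854 (plus strand), chr12:101279855-101280154 (plus), chr2:130342647-130342946 (plus), chr17:2336408-2336707 (minus) and chr1:236604467-236604766 (minus).
MRTO4: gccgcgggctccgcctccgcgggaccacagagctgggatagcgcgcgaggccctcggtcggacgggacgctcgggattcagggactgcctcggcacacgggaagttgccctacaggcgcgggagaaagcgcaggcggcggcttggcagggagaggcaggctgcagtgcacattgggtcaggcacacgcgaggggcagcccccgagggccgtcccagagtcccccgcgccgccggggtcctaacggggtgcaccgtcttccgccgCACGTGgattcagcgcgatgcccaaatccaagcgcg
UTP20: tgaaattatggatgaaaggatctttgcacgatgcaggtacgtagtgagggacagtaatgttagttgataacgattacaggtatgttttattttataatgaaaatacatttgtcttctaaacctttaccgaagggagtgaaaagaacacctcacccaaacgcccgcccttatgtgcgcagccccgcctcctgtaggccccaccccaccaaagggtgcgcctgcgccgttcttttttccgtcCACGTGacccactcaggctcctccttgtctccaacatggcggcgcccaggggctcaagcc
IMP4: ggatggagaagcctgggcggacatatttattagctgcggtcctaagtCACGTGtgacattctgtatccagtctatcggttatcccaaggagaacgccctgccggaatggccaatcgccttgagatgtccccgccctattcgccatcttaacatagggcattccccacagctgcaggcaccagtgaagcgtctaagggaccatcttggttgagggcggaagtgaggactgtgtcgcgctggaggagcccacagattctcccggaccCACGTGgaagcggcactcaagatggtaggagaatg
TSR1: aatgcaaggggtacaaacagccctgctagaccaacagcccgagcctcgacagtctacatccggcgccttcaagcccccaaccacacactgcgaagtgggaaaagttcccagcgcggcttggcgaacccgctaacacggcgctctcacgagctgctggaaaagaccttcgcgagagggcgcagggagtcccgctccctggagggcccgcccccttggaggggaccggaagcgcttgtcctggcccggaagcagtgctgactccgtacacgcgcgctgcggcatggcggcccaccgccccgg
HEATR1: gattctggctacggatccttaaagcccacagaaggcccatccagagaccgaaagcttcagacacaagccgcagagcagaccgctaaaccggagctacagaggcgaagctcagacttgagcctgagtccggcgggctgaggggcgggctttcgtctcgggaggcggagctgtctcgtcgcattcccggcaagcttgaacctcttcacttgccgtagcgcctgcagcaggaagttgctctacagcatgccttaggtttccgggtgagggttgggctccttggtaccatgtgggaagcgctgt
The E-box began at base 15 after the start site in MRTO4, at base -10 in UTP20 and at bases -203 and 16 in IMP4, the 1 member with more than 1 match. Falls were not restricted to promoters with these letters. On day 6 in MV4-11 cells, 9 of 13 measured members with an E-box fell (median -0.22), beside 18 of 23 without (median -0.36). In MOLM-13 cells 9 of 13 with an E-box fell and 1 rose (median -0.26), beside 20 of 23 without (median -0.48). With the 3′ to 5′ covariate, IMP4, MRTO4, PES1, PUS7, UTP20 and WDR43 still fell in MOLM-13 among members with an E-box. Among those without, DDX21, GAR1, GRWD1, HEATR1, NCL, NHP2, NIP7, NPM1 and WDR12 did. The larger share of falls without an E-box was thus not kept in MOLM-13 with the covariate. Of 94 other ribosome biogenesis promoters 25.5% held an E-box, and of 47 promoters of cytosolic ribosomal protein genes 4.26% did. The ETS motif CCGGAAG stood in 32.5% of member promoters and 21.0% of those of tested genes, the GC box GGGCGG in 67.5% and 70%, the NRF1 part CATGCGC in 10.0% and 7.98%, and the YY1 motif AAGATGGCG in 10.0% and 4.27%, on either strand. These counts describe letters in a window and were not tested.

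Both lines carried the myeloid genes that could be checked for their identity. CD33 and HOXA9 had been planned as well but had no probe set listed for that gene alone. SPI1, PTPRC, LYZ, CEBPA, FLT3 and MEIS1 lay at log2 8.18 or above on every array, and the T cell gene CD3E, the globin gene HBB and the epithelial gene EPCAM lay between 2.19 and 2.66, at or near the lowest value. COL1A1, a fibroblast gene, read 6.73 to 7.92. Mean correlations among arrays of a group were 0.995 to 0.999. The 3′ to 5′ difference was taken from the control probe sets of ACTB and GAPDH and grows as RNA is degraded or shortened. In MV4-11 arrays on day 6 it was 0.83, 0.86 and 1.91 in treated and 0.57 to 0.58 in vehicle cultures. On day 2 it was 0.53 to 0.57 in treated and 0.64 to 0.68 in vehicle cultures, and on day 4 0.59 to 0.67 in treated and 0.70 to 0.82 in vehicle cultures. Treated and vehicle arrays thus did not overlap in this measure on any day, with treated arrays lower on days 2 and 4 and higher on day 6 in both lines.

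The first falls were few and small. On day 2 MRTO4, LYAR and PUS7 fell in MV4-11 cells, and 36 of 40 members had a negative difference, with a member median of -0.12. MRTO4, a large subunit assembly factor related to a stalk protein of the ribosome, read 11.31, 11.24 and 11.32 (log2 intensity) in treated cultures, against 11.45, 11.64 and 11.65 in vehicle cultures. All 3 treated values lay below all vehicle values, a difference of -0.29 ± 0.07 (adjusted p = 0.0106). LYAR, a zinc finger protein of the nucleolus that acts in precursor processing, read 10.92, 11.09 and 10.97 in treated and 11.18, 11.25 and 11.35 in vehicle cultures (-0.26 ± 0.08, adjusted p = 0.0296). PUS7, a pseudouridine synthase, read 11.31, 11.32 and 11.32 against 11.56, 11.57 and 11.58 in vehicle cultures (-0.25 ± 0.06, adjusted p = 0.00743). Replicates of PUS7 were tighter than those of LYAR, and neither gene's groups overlapped. Without vehicle replicate 2 or without vehicle replicate 3 only PUS7 kept its call, LYAR also lost the call without treated replicate 1 or 3, and MRTO4 without treated replicate 2. With the 3′ to 5′ covariate 6 members fell and 1 rose on day 2 (all genes 5.26% and 10.5%).

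Day 4 gave mixed directions. LYAR had the largest fall, with 10.36, 10.36 and 10.21 in treated cultures, against 10.93, 10.95 and 11.18 in vehicle cultures (-0.71 ± 0.08, adjusted p = 3.52e-07). TSR1, a late assembly factor of the small subunit in the cytoplasm, read 10.51, 10.35 and 10.65 in treated and 11.08, 11.06 and 10.97 in vehicle cultures (-0.53 ± 0.15, adjusted p = 0.00618). RRP12, a factor of small subunit maturation and export, read 9.43, 9.49 and 9.51 in treated and 10.02, 9.87 and 9.80 in vehicle cultures (-0.42 ± 0.09, adjusted p = 0.000624). The arrays of these genes did not overlap between the groups. UTP15, a part of the processome subcomplex that joins transcription to processing, read 7.91, 7.62 and 8.0 in treated and 8.24, 8.25 and 8.28 in vehicle cultures (-0.42 ± 0.14, adjusted p = 0.0184). The call of UTP15 ended without treated replicate 2, those of FBL, NOP58, PES1 and UTP20 ended without 1 or another of the 6 arrays, and the count then lay between 12 and 14.

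The 3 rises of day 4 were NOB1, NOLC1 and FBL. NOB1, the endonuclease that makes the final cut of small subunit RNA, read 11.29, 11.21 and 11.19 in treated cultures, against 10.92, 10.73 and 10.77 in vehicle cultures (0.42 ± 0.11, adjusted p = 0.00378). NOLC1, a chaperone of small nucleolar RNPs, read 12.96, 12.94 and 12.94 in treated and 12.76, 12.78 and 12.71 in vehicle cultures (0.20 ± 0.05, adjusted p = 0.00229). FBL, the ribose methyltransferase fibrillarin, read 14.57, 14.61 and 14.62 in treated and 14.53, 14.47 and 14.48 in vehicle cultures (0.11 ± 0.04, adjusted p = 0.0436). In these 3 genes the groups did not overlap, yet the vehicle arrays of day 4 were also below those of the other days, as described next. Against the vehicle cultures of days 2 and 6, FBL stood at -0.05 and NOLC1 at -0.04, and NOB1 at 0.12 (adjusted p = 0.278).

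Vehicle cultures of day 4 stood apart for these genes. Relative to the mean of the vehicle cultures of days 2 and 6, 28 of 40 members were lower and 0 higher in the vehicle cultures of day 4 (median -0.27), where 15.2% of all genes were lower and 13.4% higher. All 40 members had a negative difference. WDR12, a member of the PeBoW complex of large subunit processing, read 11.11, 11.13 and 11.06 on day 2, 10.84, 10.83 and 10.75 on day 4 and 11.16, 11.22 and 11.20 on day 6 in vehicle cultures (-0.34 ± 0.05, adjusted p = 3.27e-05). PUS7 read 11.56, 11.57 and 11.58 on day 2, 11.22, 11.24 and 11.09 on day 4 and 11.32, 11.52 and 11.57 on day 6 (-0.33 ± 0.05, adjusted p = 7.72e-05). In both genes the day 4 arrays lay below all arrays of the other days. POLR1C, a subunit shared by RNA polymerases I and III, read 9.98, 10.07 and 10.13 on day 2, 9.68, 9.56 and 9.67 on day 4 and 9.81, 9.95 and 10.04 on day 6 (-0.36 ± 0.06, adjusted p = 9.87e-05). BYSL, a small subunit assembly factor, read 10.01, 10.16 and 10.16, then 9.81, 9.70 and 9.51, then 9.87, 9.98 and 10.06 on the same days (-0.37 ± 0.06, adjusted p = 0.000122). DDX56, NIP7, NOB1, NOP14, POLR1B, RRP9, RRS1 and WDR43, 8 of the 28 members called, lost the call without 1 or another array, and the count then lay between 22 and 29.

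Day 6 and day 2 of the vehicle cultures were compared as well. In limma's model 0 members were called in either direction (all genes 0.784% higher and 0.337% lower on day 6). At an unadjusted p under 0.05, 1 member was higher and 9 were lower on day 6, where 14.7% of all genes passed. The member median was -0.07. With the vehicle cultures of days 2 and 6 in place of those of day 4, 32 members fell and 0 rose in treated cultures of day 4 (median -0.36), where 28% of all genes fell and 29.1% rose, and 12 of the 15 earlier calls were among the 32. Relative to the day 2 vehicle mean, the median over members was -0.12, -0.38 and -0.42 on days 2, 4 and 6 in treated cultures, and 0, -0.31 and -0.07 in vehicle cultures.

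**Figure D2:**
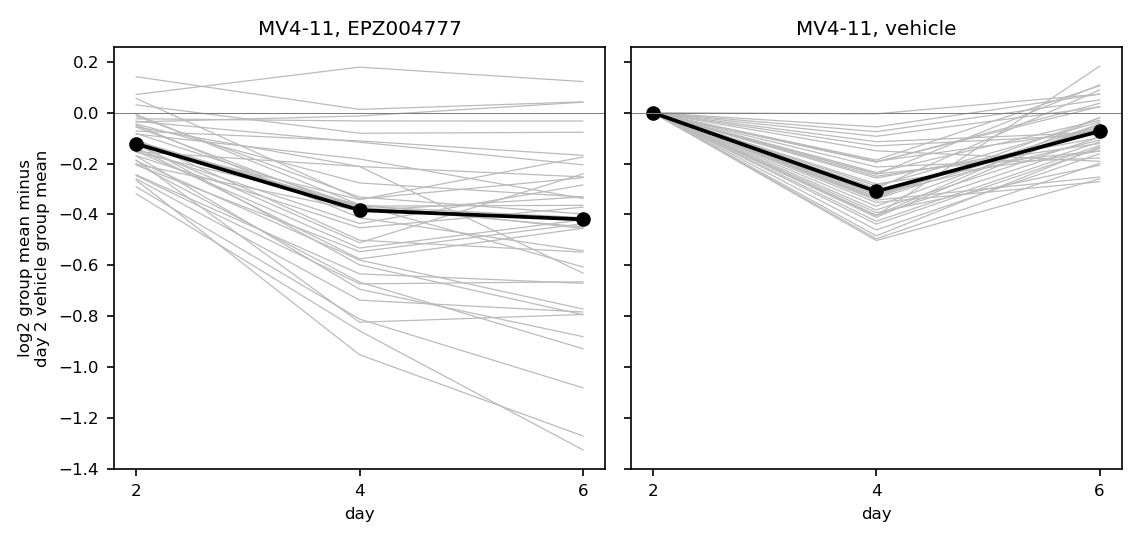
Log2 group means of the 40 members in MV4-11 cells relative to the mean of the vehicle cultures of day 2 (vertical axis), by day (horizontal axis), in EPZ004777 cultures (left) and vehicle cultures (right). Grey lines are members, 3 arrays per point, and the black line is their median, which was -0.42 in treated and -0.07 in vehicle cultures on day 6 and -0.38 and -0.31 on day 4.

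By day 6 the difference in MV4-11 cells was wide and deep. TSR1 read 10.31, 10.30 and 9.50 in treated cultures, against 11.25, 11.38 and 11.31 in vehicle cultures, the largest fall of any member (-1.28 ± 0.15, a 2.43-fold fall, adjusted p = 3.71e-07). Treated replicate 3, which also had the high 3′ to 5′ difference of 1.91, was far below its fellows, and the fall was -1.01 without it and -0.88 with the covariate. LYAR read 10.02, 10.07 and 9.87 in treated and 10.98, 11.19 and 11.15 in vehicle cultures (-1.12 ± 0.08, a 2.17-fold fall, adjusted p = 3.35e-10). UTP15 read 7.84, 8.0 and 7.77 in treated and 8.83, 8.95 and 8.76 in vehicle cultures (-0.98 ± 0.14, adjusted p = 5.36e-06). MRTO4 read 10.54, 10.56 and 10.39 in treated and 11.43, 11.38 and 11.45 in vehicle cultures (-0.92 ± 0.07, adjusted p = 1.82e-09). In all of these the treated arrays lay below the vehicle arrays without overlap. With the covariate LYAR stood at -1.04, UTP15 at -0.86 and MRTO4 at -0.83. Other probe sets did not always share the sign: of 4 that passed for TSR1, 1 stood at 0.24 on day 6 and the others at -1.28, -1.07 and -0.68.

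**Figure D3:**
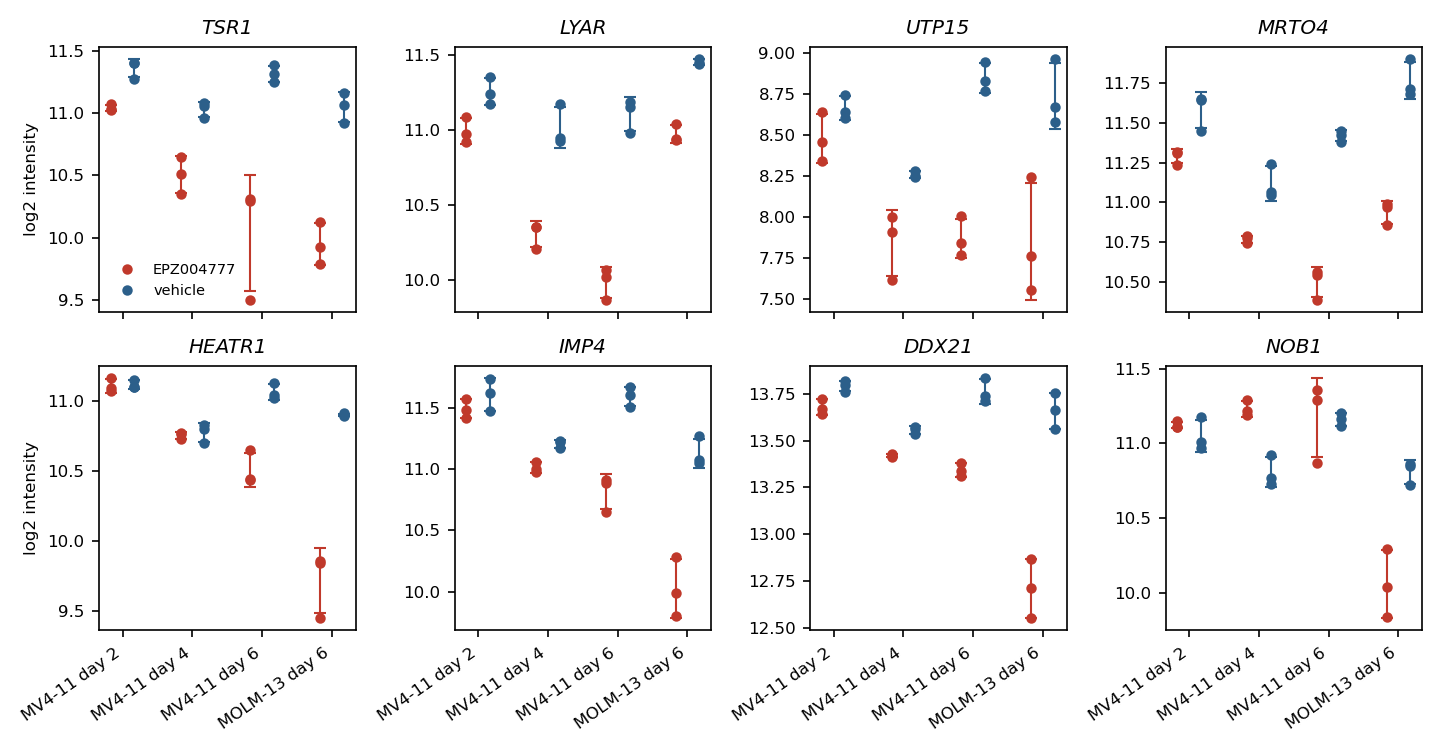
Log2 intensity (vertical axes, scaled for each gene) of 8 members in each array of MV4-11 cells on days 2, 4 and 6 and MOLM-13 cells on day 6, with EPZ004777 in red left of vehicle in blue. Points are arrays and bars the mean ± SD of 3. TSR1, LYAR, UTP15 and MRTO4 fell on both day 4 and day 6, while NOB1 was higher under treatment on day 4 in MV4-11 and lower on day 6 in MOLM-13.

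The members were then read by role in MV4-11 on day 6. Of the small subunit factors 10 of 11 fell (median -0.55), among them UTP20 at -0.84 ± 0.11, IMP4 at -0.78 ± 0.10 and BYSL at -0.63 ± 0.07, and NOB1 stood at 0.01 (adjusted p = 0.936). Of the large subunit factors 10 of 11 fell (median -0.39), with NOP16 at -0.73 ± 0.09, NIP7 at -0.72 ± 0.09 and RRS1 at -0.42 ± 0.09, and RRP1 stood at -0.11 (adjusted p = 0.301). Of the 5 genes of RNA polymerase I transcription 3 fell: POLR1B, a catalytic core subunit, at -0.36 ± 0.08, POLR1C at -0.28 ± 0.06 and UBTF, which binds the ribosomal DNA promoter, at -0.18. POLR1A, the catalytic partner of POLR1B, stood at -0.20 (adjusted p = 0.111) and RRN3, which brings the polymerase to the promoter, at -0.03 (adjusted p = 0.828). Both box H/ACA proteins, which serve pseudouridylation, fell, GAR1 at -0.51 and NHP2 at -0.24. Of the 3 box C/D proteins NOP58 fell, at -0.25, while RRP9 stood at -0.17 and FBL at -0.01. Among abundant nucleolar proteins LYAR, the helicase DDX21 (-0.42 ± 0.07) and nucleolin, NCL (-0.27 ± 0.05), fell, and nucleophosmin, NPM1, stood at -0.11 (adjusted p = 0.0522) and NOLC1 at -0.06. NPM1 has near-identical pseudogene copies, so its signal is uncertain. Among the RNA modification enzymes PUS7 fell by 0.57, and the cytosine methyltransferase NOP2 and the acetyltransferase NAT10 stood at -0.17 and -0.12. The calls of GNL2, GRWD1, NHP2, NOP58, UBTF and WDR43, all with differences of -0.25 or closer to 0, ended without 1 or another of the 6 arrays, and the count then lay between 24 and 31. With the 3′ to 5′ covariate 10 small subunit factors fell and NOB1 rose, at 0.31 (adjusted p = 0.00212), and 9 large subunit factors, 4 abundant nucleolar proteins, 3 polymerase I genes and 1 box H/ACA protein fell. The covariate's slope leans on treated replicate 3, at 1.91 beside 0.83 and 0.86 in its fellows.

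Day 6 and day 2 of MV4-11 were then compared directly. The difference between the 2 effects was called lower on day 6 for 18 members and higher for 0, where 18.7% of all genes were lower and 20.9% higher, and its median was -0.23. For LYAR the effect was -1.12 on day 6 and -0.26 on day 2, a change of -0.86 ± 0.11 (adjusted p = 7.04e-06). For WDR12 it was -0.49 on day 6, with 10.76, 10.75 and 10.60 in treated and 11.16, 11.22 and 11.20 in vehicle cultures, and -0.01 on day 2, with 11.13, 11.04 and 11.08 in treated and 11.11, 11.13 and 11.06 in vehicle cultures (change -0.47 ± 0.08, adjusted p = 8.21e-05). The WDR12 groups overlapped on day 2 and not on day 6. Other passing probe sets of WDR12 stood at 0.16 and -0.37 on day 2 and at 0.27 and -0.39 on day 6, so its change rests on 1 probe set. For MRTO4 the change was -0.63 ± 0.10 (adjusted p = 8.48e-05). For GAR1 it was -0.41 ± 0.08 (adjusted p = 0.000509), with 11.13, 11.20 and 11.34 in treated and 11.72, 11.68 and 11.80 in vehicle cultures on day 6, and 11.67, 11.65 and 11.69 in treated and 11.75, 11.80 and 11.77 in vehicle cultures on day 2. GAR1 thus showed no overlap on either day, with a wider gap on day 6. The calls of NOLC1 and WDR74 ended without 1 or another array.

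In MOLM-13 cells HEATR1, IMP4 and TSR1 had the largest falls. HEATR1, a processome protein that joins transcription to processing, read 9.86, 9.45 and 9.84 in treated cultures, against 10.90, 10.90 and 10.91 in vehicle cultures (-1.19 ± 0.08, a 2.27-fold fall, adjusted p = 4.13e-10). IMP4, a processome protein that binds its guide RNA, read 10.28, 9.80 and 9.99 in treated and 11.07, 11.27 and 11.05 in vehicle cultures (-1.11 ± 0.10, adjusted p = 1.41e-08). TSR1 read 10.12, 9.79 and 9.92 in treated and 11.16, 11.07 and 10.92 in vehicle cultures (-1.10 ± 0.15, adjusted p = 2.18e-06). In each of them every treated array lay below every vehicle array. Other passing probe sets of HEATR1 stood at -0.67 and 0.003. DDX21, a helicase of nucleolus and nucleoplasm, read 12.87, 12.55 and 12.71 in treated and 13.66, 13.75 and 13.56 in vehicle cultures (-0.95 ± 0.07, adjusted p = 3.21e-10). The 1 rise was NOP14, a processome protein, with 10.70, 10.65 and 10.66 in treated and 10.50, 10.52 and 10.53 in vehicle cultures (0.15 ± 0.06). Its call ended under 8 of 14 other settings, among them the removal of any 1 of the 6 arrays. DDX10, DDX56, NPM1, POLR1B and RRP9 also lost their calls without 1 or another array.

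The 3′ to 5′ control difference was largest between the groups of this line. With it as a covariate, 17 members fell and 0 rose in MOLM-13 cells (39.5% of all genes were called), 13 of them among the 31 called without it, and the member median was -0.29. HEATR1 then stood at -0.87, IMP4 at -0.63 and DDX21 at -0.77, all still called. TSR1 stood at -0.25 (adjusted p = 0.191), and 1 of its other probe sets was higher under treatment, at 0.49 in the fit without the covariate. DDX56, a helicase of large subunit assembly, stood at 0.05 with the covariate and at -0.21 without it. The covariate and the treatment move together in this line, and the part of RNA quality in the MOLM-13 result was not tested. Because each group had its own mean, the covariate's slope came only from the spread of arrays within groups. That spread was widest in treated MV4-11 cultures of day 6, at 0.83, 0.86 and 1.91, and in treated MOLM-13 cultures, at 2.10, 2.84 and 2.31. The covariate values in both lines thus rest largely on a few arrays, above all treated replicate 3 of MV4-11 on day 6.

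By role, both box H/ACA proteins fell in MOLM-13 cells, NHP2 at -0.88 and GAR1 at -0.47, and all 5 abundant nucleolar proteins fell, with NOLC1 at -0.43 ± 0.05, NCL at -0.39 ± 0.05 and NPM1 at -0.13. Of the 5 polymerase I genes 4 fell, POLR1A at -0.69 ± 0.11 and RRN3 at -0.54 ± 0.11 most. Another probe set of POLR1A stood at 0.91, and UBTF stood at -0.05 (adjusted p = 0.601). Of the 11 small subunit factors 8 fell and NOP14 rose (median -0.75). UTP20 stood at -0.92 ± 0.11 and NOB1 at -0.75 ± 0.11, while WDR43 and RRP12 stood at -0.10 and 0.07 with no call. Other passing probe sets of RRP12 stood at -1.60, 0.44 and 0.55. Of the 11 large subunit factors 7 fell (median -0.35), led by MRTO4 at -0.83 ± 0.07 and WDR12 at -0.80 ± 0.05. Other passing probe sets stood at -0.28 for MRTO4 and at 0.08 and 0.002 for WDR12. PES1, RRP1, RRS1 and GRWD1 were not called, at -0.09, -0.05, -0.02 and -0.04. Of the 3 box C/D proteins RRP9 and FBL fell, at -0.26 and -0.17, and of the 3 modification enzymes PUS7 and NAT10 did, at -0.65 and -0.34. With the 3′ to 5′ covariate the counts by role were smaller for most roles. Then 0 of 5 polymerase I genes fell, with POLR1A at -0.25 (adjusted p = 0.236) and RRN3 at -0.32 (adjusted p = 0.218). Of the small subunit factors 4 of 11 fell and 0 rose, of the large subunit factors 5 of 11, of the abundant nucleolar proteins 4 of 5 and of the box H/ACA proteins 2 of 2. Of the box C/D proteins 1 of 3 fell, NOP58 at -0.42, and of the modification enzymes 1 of 3, PUS7 at -0.59.

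The 2 lines shared 22 falling members on day 6, which is 73.3% of the 30 in MOLM-13 and 73.3% of the 30 in MV4-11. Over all genes 2057 fell in both, 51.4% of those that fell in MOLM-13 and 66.1% of those in MV4-11. With the 3′ to 5′ covariate 15 members fell in both, 88.2% of 17 in MOLM-13 and 51.7% of 29 in MV4-11, and 1175 of all genes did, 47.3% of those that fell in MOLM-13 and 43.6% of those in MV4-11. The lines share no control arrays. NOP2 and RRP1 were not called in any of the 4 treatment comparisons, and NOP14 was the 1 member with opposite calls between the lines on day 6, rising in MOLM-13 and falling in MV4-11.

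**Figure D4:**
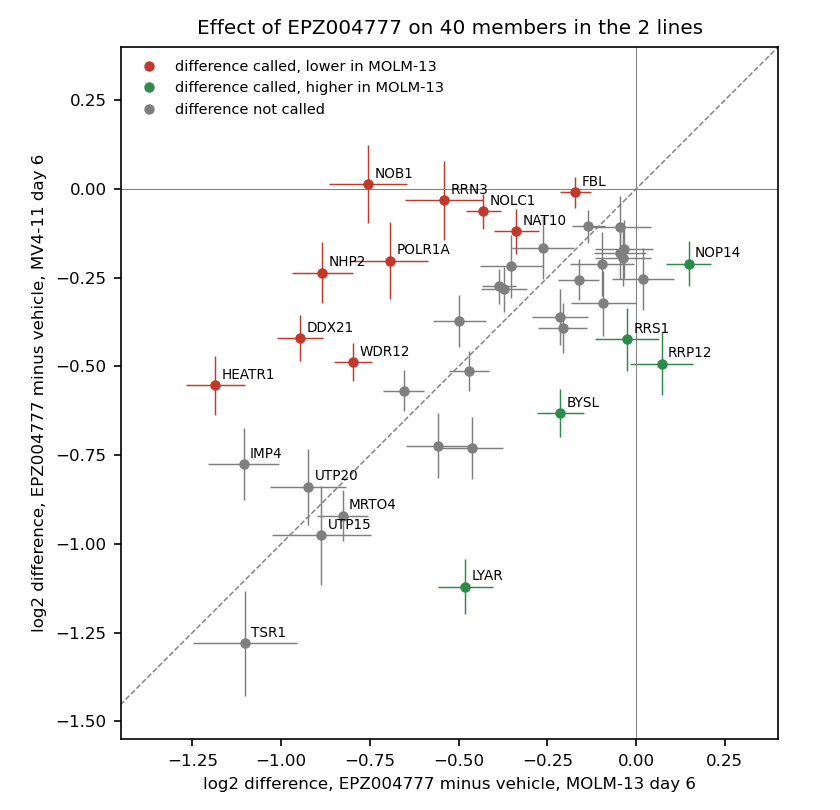
Log2 difference, EPZ004777 minus vehicle, on day 6 of the 40 members in MOLM-13 cells (horizontal axis) and MV4-11 cells (vertical axis), with bars of 1 SE from 3 arrays per group and a dashed line of equal effect. Red points had a lower and green points a higher effect in MOLM-13 by the test of the difference, 10 and 5 members. HEATR1 lies far to the left of the line and LYAR far to its right.

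The effects differed between lines for 15 members. The difference, MOLM-13 minus MV4-11, was called lower for 10 and higher for 5 (all genes 32.7% lower and 19.4% higher), with a member median of 0.05 beside -0.10 over all genes. This balance depends on scaling: after centring each array on its own median, 16 were called higher and 5 lower, where 29.2% of all genes were higher and 23.7% lower. The member median was then 0.21 and the median over all genes 0.06. With the 3′ to 5′ covariate 8 members were higher and 6 lower (all genes 19.1% and 30.6%), 11 of them among the 15, and RRN3, POLR1A, FBL and NAT10 lost their calls. LYAR fell by 0.48 in MOLM-13, with 10.94, 10.94 and 11.04 in treated and 11.45, 11.48 and 11.44 in vehicle cultures, and stood at -1.12 in MV4-11 (difference 0.64 ± 0.11, adjusted p = 7.99e-05). Its second probe set stood at -1.08 in MOLM-13 and -0.97 in MV4-11, so the line difference of LYAR rests on 1 probe set. DDX21 stood at -0.95 in MOLM-13 and -0.42 in MV4-11, with 13.31, 13.38 and 13.34 in treated and 13.71, 13.84 and 13.74 in vehicle cultures (difference -0.53 ± 0.09, adjusted p = 9.36e-05). HEATR1 stood at -1.19 in MOLM-13 and -0.55 in MV4-11, with 10.65, 10.44 and 10.44 in treated and 11.02, 11.04 and 11.13 in vehicle cultures (difference -0.63 ± 0.12, adjusted p = 0.000177). Both of these groups of arrays were apart in each line. Other passing probe sets of HEATR1 stood at -0.67 and 0.003 in MOLM-13 and at -0.23 and 0.11 in MV4-11, in the same order. NHP2 read 12.24, 11.75 and 12.17 in treated and 12.92, 12.99 and 12.90 in vehicle MOLM-13 cultures, and 13.18, 13.16 and 13.24 in treated and 13.38, 13.43 and 13.48 in vehicle MV4-11 cultures (difference -0.65 ± 0.12, adjusted p = 0.000197). NHP2 and NOB1 (difference -0.77 ± 0.16) are lower in MOLM-13 to start with, as the vehicle cultures show. The calls of FBL and NAT10 ended without 1 or another array.

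Vehicle MOLM-13 cultures carried more of these transcripts than vehicle MV4-11 cultures on day 6. Of the 40 members 23 were higher and 4 lower in MOLM-13 (median 0.24), where 30.7% of all genes were higher and 33% lower. BYSL read 10.83, 10.77 and 10.78 in MOLM-13 and 9.87, 9.98 and 10.06 in MV4-11 (0.82 ± 0.07, adjusted p = 1.54e-09). POLR1C read 10.74, 10.69 and 10.73 in MOLM-13 and 9.81, 9.95 and 10.04 in MV4-11 (0.79 ± 0.06, adjusted p = 1.69e-09). Both genes were separated by more than the spread of the arrays. POLR1A read 9.35, 9.39 and 9.26 in MOLM-13 and 7.94, 8.03 and 8.15 in MV4-11 (1.29 ± 0.11, adjusted p = 2.29e-09). As the mean of its probe sets, POLR1A was lower in MOLM-13, at -0.40 (adjusted p = 0.000172), so its direction is open to the choice of probe set. UTP20, a scaffold of the processome, read 8.89, 9.26 and 8.89 in MOLM-13 and 7.99, 8.22 and 8.12 in MV4-11 (0.91 ± 0.11, adjusted p = 3.41e-07). FBL, NHP2, IMP4 and NOB1 were the 4 members lower in MOLM-13, from -0.15 to -0.49. Line and medium differ together and cannot be told apart. The 3′ to 5′ difference also separated these vehicle arrays, at 0.95 to 1.15 in MOLM-13 and 0.57 to 0.58 in MV4-11. With it as a covariate 22 of the 27 calls were kept (all genes 30% higher and 31% lower).

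For each array the median over the 40 members of the deviation from the gene's mean over 24 arrays was -0.10 to -0.01 in treated and 0.28 to 0.31 in vehicle MOLM-13 cultures. In MV4-11 on day 6 it was -0.25 to -0.24 in treated and 0.04 to 0.15 in vehicle cultures. On day 4 it was -0.27 to -0.20 in treated and -0.16 to -0.06 in vehicle cultures, and on day 2 0.03 to 0.07 in treated and 0.14 to 0.20 in vehicle cultures. Treated and vehicle arrays did not overlap within any line and day, and the day 4 gap was the narrowest.

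**Figure D5:**
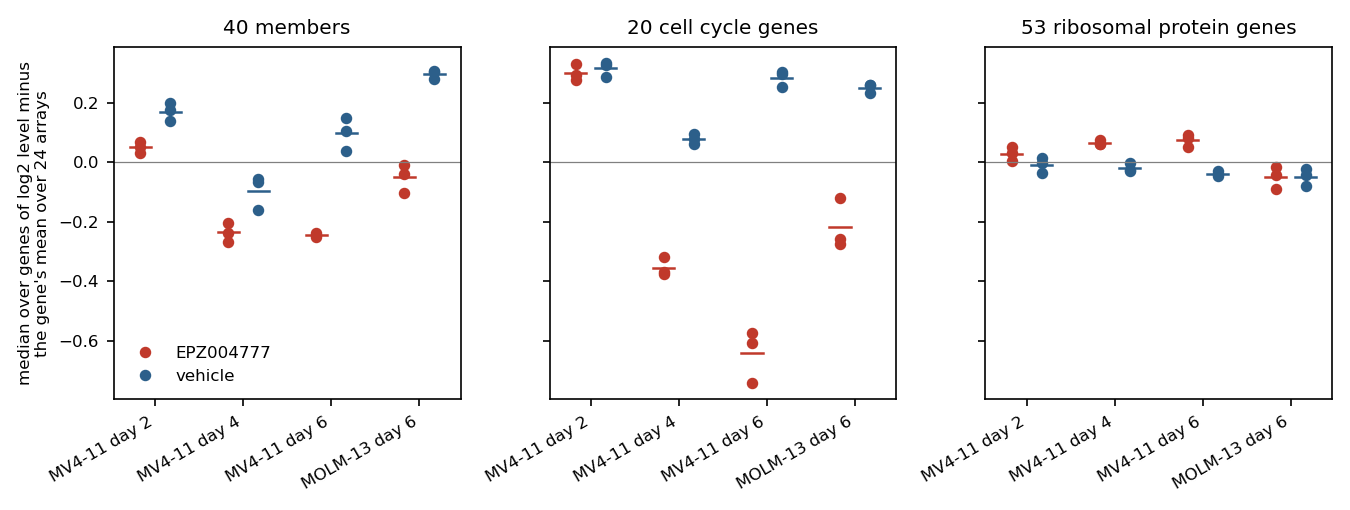
Median log2 deviation from the gene's mean over 24 arrays (vertical axis) for each array, for the 40 members (left), 20 cell cycle genes (middle) and 53 cytosolic ribosomal protein genes (right), by line and day, with EPZ004777 in red left of vehicle in blue. Points are arrays and short lines are group means. Treated arrays lie below vehicle arrays for the members in each line and day, and within 0.10 of 0 for the ribosomal protein genes throughout.

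Other genes of the pathway also fell more often than they rose on day 6. Of 113 other ribosome biogenesis genes listed, 110 were tested. In MV4-11 on day 6, 62 of them fell and 7 rose (median -0.26), and in MOLM-13 71 fell and 9 rose (median -0.33). With the 3′ to 5′ covariate 59 fell and 5 rose in MV4-11, and 45 fell and 4 rose in MOLM-13. On day 2 in MV4-11 3 fell and 0 rose, and on day 4 27 fell and 6 rose. PNO1, a small subunit factor that works beside NOB1, stood at -1.86 in MOLM-13 and -1.10 in MV4-11. RRP15, a large subunit factor, stood at -1.03 in MOLM-13 and -0.71 in MV4-11. All 13 tested genes of the RNA exosome, which trims the precursor and degrades its spacers, fell in MV4-11 on day 6 (median -0.36), with EXOSC9 at -0.96, and 10 of 13 fell in MOLM-13. With the covariate 9 fell in MV4-11, and 4 fell and 1 rose in MOLM-13. TAF1C, a subunit of the polymerase I selectivity factor, stood at 1.10 in MOLM-13 and 0.43 in MV4-11, while its partner TAF1B stood at -1.71 in MOLM-13 and -0.69 in MV4-11. Of 53 tested cytosolic ribosomal protein genes of 79 listed, 28 rose and 1 fell in MV4-11 on day 6 (median 0.12), and 5 rose and 12 fell in MOLM-13 (median 0.01). These counts turn on the scaling: after centring each array on its own median, 5 rose and 1 fell in MV4-11, and 20 rose and 7 fell in MOLM-13. With the covariate 21 rose and 1 fell in MV4-11, and 2 rose and 3 fell in MOLM-13. RPL24 stood at 0.07 in MOLM-13 and 0.23 in MV4-11, and RPL36AL at -0.58 in MOLM-13 and -0.31 in MV4-11. Ribosomal protein genes have many near-identical pseudogenes, so these small differences are uncertain.

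Genes of growth and division changed beside them. All 20 cell cycle genes fell in MV4-11 on day 6 (median -0.82) and 15 of 20 fell in MOLM-13 (median -0.53), with 17 falling on day 4 and 1 on day 2. With the covariate 20 fell in MV4-11, and 11 fell and 1 rose in MOLM-13. The proliferation marker MKI67 fell by 1.48 in MV4-11 on day 6 and stood at 0.06 in MOLM-13 (adjusted p = 0.478). MYC read 13.25, 13.24 and 12.58 in treated and 13.51, 13.47 and 13.57 in vehicle MV4-11 cultures on day 6 (-0.49 ± 0.12, adjusted p = 0.00115). Treated replicate 3 was the low array, and the difference was -0.27 without it and -0.16 with the 3′ to 5′ covariate. In MOLM-13 it read 12.57, 12.33 and 12.59 in treated and 13.52, 13.50 and 13.48 in vehicle cultures (-1.0 ± 0.12, adjusted p = 3.4e-07), and the difference was -0.29 with the covariate. On days 2 and 4 MYC stood at 0.08 and 0.21 with no call (adjusted p = 0.763 and 0.16). DOT1L itself stood at -0.55, -0.99 and -0.36 on days 2, 4 and 6 in MV4-11, all called, and at -0.09 in MOLM-13 (adjusted p = 0.576). On day 6 in MV4-11 it read 8.45, 8.40 and 9.07 in treated and 9.05, 8.93 and 9.03 in vehicle cultures, so treated replicate 3 lay above all vehicle arrays. The difference was -0.58 without that array, and the call ended without treated replicate 1 (-0.27) or 2 (-0.24) and without vehicle replicate 1 (-0.34) or 3 (-0.35). With the covariate DOT1L stood at -0.78 in MOLM-13 (adjusted p = 0.00113) and -0.68 in MV4-11. The part of cell division or of MYC in the members' falls was not tested.

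Of the 40 members 20 had more than 1 passing probe set, 33 further sets in all. These shared the sign of the set used in 27, 22, 26 and 22 of 33 cases in MV4-11 on days 2, 4 and 6 and in MOLM-13. For members called, the counts were 2 of 2, 12 of 15, 20 of 26 and 18 of 26. NOLC1, HEATR1, RRP12, UBTF, POLR1A and WDR12 were among the genes whose sets differed in size or sign. For NOLC1 in MV4-11 on day 6 the set used stood at -0.06 and the others at -1.3 and -1.60.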

How the data were processed

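RNA of 24 cultures was measured on Affymetrix arrays of 54675 probe sets after labelling as biotinylated antisense RNA. The deposited values are normalized intensities on a linear scale, made by the authors with GCRMA per the submitters' processing notes, in a version not given in the sources used here. GCRMA forces the arrays to 1 distribution, so a shift shared by most genes is not visible. For arrays the number of arrays, 3 per group, limits the precision, and an exact permutation test of 3 against 3 cannot go below 0.1. Intensities were taken to log2 with no pseudocount. Probe sets had to reach a log2 of 4 in at least 3 arrays. Of the probe sets, 41091 named 1 gene, 1801 several and 11777 none, 62 were controls, and 41037 matched RefSeq GRCh38.p14. Each gene took its brightest probe set by the mean over all arrays, which gave 10971 genes. limma 3.58.1 in R 4.3.3 fitted the means of the 8 groups with a shared spread, two-sided tests and Benjamini-Hochberg adjustment over all genes. The fit was tested on simulated data. Samples were grouped by the line, day and treatment in their labels. Figures were drawn with matplotlib 3.10.9 and tables read with pandas 2.3.3 in Python 3.11.15. Alternatives were another filter, scaling, probe set rule, variance prior, sample set, a replicate block, the 3′ to 5′ control difference as a covariate, other vehicle cultures for day 4 and the removal of each array. Levels of every array were given for the 4 largest rises and 4 largest falls among called members of each treatment effect and for up to 4 members by adjusted p in each difference, and other lists were shown by up to 4 genes by adjusted p. The covariate and scaling for the other gene lists, MYC and DOT1L, and the removal of arrays for MYC and DOT1L, were chosen after seeing the data. The members and gene lists were chosen with earlier results of these data known.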

Additional observations from a re-analysis of the deposited data

Results flagged for a closer look

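The treatment effect differed between groups by limma's test of the difference itself in 33 cases, 15 between lines and 18 between days. Between lines that is 37.5% of the members, below the 52% of all genes, and between days 45%, near the 39.6% of all genes. Between lines, MOLM-13 minus MV4-11 on day 6, it was lower in MOLM-13 for NOB1 (-0.77), NHP2 (-0.65), HEATR1 (-0.63), DDX21 (-0.53), RRN3 (-0.51), POLR1A (-0.49), NOLC1 (-0.37), WDR12 (-0.31), NAT10 (-0.22) and FBL (-0.16). It was higher in MOLM-13 for LYAR (0.64), RRP12 (0.57), BYSL (0.42), RRS1 (0.40) and NOP14 (0.36). For RRP12 the direction depends on the probe set. Its other passing sets stood at -1.60, 0.44 and 0.55 in MOLM-13 and at -1.34, -0.01 and -0.02 in MV4-11, in the same order. The directions of LYAR, NOLC1, WDR12 and POLR1A depend on the probe set as well. Other sets of NOLC1 stood at -1.44 and -1.26 in MOLM-13 and at -1.30 and -1.60 in MV4-11. Those of WDR12 stood at 0.08 and 0.002 in MOLM-13 and at 0.27 and -0.39 in MV4-11. Those of POLR1A stood at 0.91 and -0.82 in MOLM-13 and at -0.07 and -0.54 in MV4-11.

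Between days, day 6 minus day 2 in MV4-11, the effect was lower on day 6 for the small subunit factors TSR1 (-0.96), UTP15 (-0.79), UTP20 (-0.67), IMP4 (-0.66), HEATR1 (-0.55) and BYSL (-0.44). It was lower for the large subunit factors MRTO4 (-0.63), NOP16 (-0.53), WDR12 (-0.47), NIP7 (-0.46), DDX56 (-0.34) and WDR74 (-0.32). It was also lower for LYAR (-0.86), GAR1 (-0.41), PUS7 (-0.32), DDX21 (-0.31), NCL (-0.22) and NOLC1 (-0.20). Groups of 3 arrays are too small for a test of single outlying arrays.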

How the results depend on the processing

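The count of members called on day 2 in MV4-11 was 3 (all genes 12.5%). It was 7 in a fit of that comparison's arrays alone (all genes 17.7%) or with the 3′ to 5′ covariate (all genes 15.8%). On day 4 it was 15 (all genes 46.2%). It was 32 with the vehicle cultures of days 2 and 6 (all genes 57.1%), where FBL (-0.047) and NOLC1 (-0.040) changed sign. In MOLM-13 it was 31 (all genes 65.8%), and 17 with the covariate (all genes 39.5%), where DDX56 stood at 0.053. For vehicle cultures, day 6 minus day 2, it was 0 (all genes 1.12%), and 1 with the covariate (all genes 1.95%). With the mean of all probe sets of a gene, DDX56 (0.16) and POLR1B (0.19) in MOLM-13, POLR1A between lines (0.069), DDX56 between days (0.23) and POLR1A between vehicle cultures of the lines (-0.40) changed sign. The cause was not tested in these cases. With each array left out in turn, the counts ran from 1 to 4, 12 to 14 and 24 to 31 in MV4-11 on days 2, 4 and 6 and from 28 to 29 in MOLM-13. The shares of all genes called then ran from 8.29% to 8.94%, 40.6% to 42.9%, 57.1% to 60% and 60.6% to 63.8%. Member counts ran from 13 to 19 between lines (all genes 48.1% to 56.4%) and 17 to 20 between days (all genes 34.8% to 40.8%). For vehicle day 6 minus day 2 they ran from 0 to 2, the 2 without replicate 3 of day 6 (all genes 0.255% to 3.34%). They ran from 22 to 29 for the day 4 vehicle and 22 to 27 for vehicle lines. With every array kept, 28.6% and 63.8% of all genes were called in these 2 comparisons. With the replicate number as a block the counts were 3, 14, 26 and 30 for the treatment effects, 13 between lines, 18 between days, and 0, 26 and 22 for the vehicle comparisons. Of all genes 11.6%, 45.2%, 61.4% and 65.3% were then called for the treatment effects, 51.1% between lines and 38.6% between days. For vehicle day 6 minus day 2 and for the day 4 vehicle, 1% and 27% of all genes were called with the block. Same-numbered samples correlated at -0.261 to 0.0961, and samples of other numbers at -0.244 to 0.282. No shared effect of the number was visible, but 3 arrays per group cannot settle whether the numbers pair the samples. Signal near background limits no member, since each measured one passed the filter.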
